A study of Rattus norvegicus with 6 samples.

Results

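Neurexins, neuroligins and cerebellins are the proteins that hold many synapses together across the cleft. The genes described here are 7 of the 32883 in the count table: 2 neurexin genes (Nrxn2 and Nrxn3), 3 neuroligin genes (Nlgn1, Nlgn2 and Nlgn3) and 2 cerebellin genes (Cbln1 and Cbln2). They were found by symbol, each symbol matched a single row, and all 7 passed the filter on low counts. The set was chosen by measured values of the same contrast, because Nrxn3 had the smallest p of all lowered genes, so the difference between the groups is given for these 7 genes as a description and not as a test.

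The data are RNA-seq counts from the vestibular sensory epithelium, the sheet of hair cells (HCs) and supporting cells that senses head acceleration. All 6 animals were adult male Long-Evans rats. In the IDPN-4wk group, the drinking water of 3 rats contained IDPN (3,3'-iminodipropionitrile, which is toxic to HCs) at 20 mM for 4 weeks, and the 3 control rats had plain water. Each library held the 2 utricles and 6 cristae of a single animal, so no library mixed animals, and the tissue was whole epithelium with no sorting of cells. The animal codes in the sample titles share a prefix within the IDPN-4wk group that no control carries. The labels do not say what it marks, and anything it marks cannot be told apart from the treatment.

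Libraries held from 13358678 to 18561991 counts. Values below are CPM, the counts scaled to a common library size, with TMM factors, and the log2-Fold change (log2FC) is that of IDPN-4wk over control in the edgeR fit across all genes. CPM are not divided by transcript length, so differences are compared between libraries for the same gene or sum, and a share in a sum of counts does not rank genes by transcript number. HC markers were present in all libraries, with Myo7a at 252 CPM in the controls and 162 CPM after IDPN on average, and so were those of supporting cells, such as Sox9 at 300.0 and 355 CPM and Otog at 6262 and 3199 CPM.

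As background, neurexins are membrane proteins of the presynaptic side. They bind partners that lie across the cleft, of which the neuroligins are the best known. Neuroligin genes differ in the synapses they serve: the Nlgn1 product sits mainly at excitatory synapses, that of Nlgn2 at inhibitory ones, and that of Nlgn3 at both kinds. Cerebellins are secreted proteins that bind neurexins on one side and glutamate receptors of the delta class on the other, and so bridge the cleft. In the vestibular epithelium, HCs release glutamate onto afferent terminals of ganglion neurons, and the cell bodies of those neurons lie outside the dissected tissue.

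In the IDPN-4wk libraries Nrxn3 was at 8.06% and Nlgn1 at 21.4% of the control level, and no library of either group overlapped the other for these genes. In bulk tissue, fewer cells of a type and less RNA per cell cannot be told apart. Cbln2 was at 53.8% of control with groups that did not overlap. Nrxn2, Nlgn2, Nlgn3 and Cbln1 were between 72.4% and 110% of control, and their libraries overlapped. Past both thresholds (edgeR adjusted p under 0.05 and a fold change over 1.5) were 2 of the 7 genes, Nrxn3 and Nlgn1, both lower. Of the 14352 genes tested, 9.71% passed both thresholds, 6.62% as lower and 3.09% as higher in IDPN-4wk. In 19.3% of all tested genes every IDPN-4wk library was below every control library, and in 18.5% every one was above. Since this contrast chose the genes, nothing is read from these counts about the set. The median log2-Fold change of the 7 genes was -0.47, beside 0.02 for all genes tested.

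Nrxn3 (ENSRNOG00000047574) encodes a neurexin. Its level was 59.9, 73.6 and 58.8 CPM in control replicates 1 to 3, from 927, 1053 and 831 counts. In IDPN-4wk replicates 1 to 3 it was 4.24, 4.49 and 6.76 CPM, from 59, 87 and 105 counts. The lowest control library was thus several times above the highest exposed one, and IDPN-4wk replicate 3 had the highest exposed level. The means were 64.1 ± 8.25 and 5.16 ± 1.39 CPM (mean ± SD, 3 libraries per group), with a log2-Fold change of -3.63 (SE 0.17). A lower log2-Fold change was found in 28 of the tested genes. The coefficient of variation of Nrxn3 was 12.9% among the controls and 26.9% among the exposed libraries.

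Nrxn2 (ENSRNOG00000021103), the other neurexin of the set, had 6.20, 7.90 and 8.49 CPM in the controls and 6.33, 5.26 and 4.76 CPM after IDPN. The highest exposed library lay above the lowest control library. Its means were 7.53 ± 1.19 and 5.45 ± 0.798 CPM (mean ± SD, 3 libraries per group), and its log2-Fold change was -0.47 (SE 0.21), not past either threshold.

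The balance of these neurexin genes differed between the groups. Nrxn3 took 90.6%, 90.3% and 87.4% of the summed counts of Nrxn2 and Nrxn3 in the control libraries. In the IDPN-4wk libraries it took 40.1%, 46.0% and 58.7%. Nrxn2 went the other way in this share, from 10.6% ± 1.79 to 51.7% ± 9.46 (mean ± SD, 3 libraries per group), with no higher level of its own. The sum of both genes was 71.6 ± 8.57 CPM in the controls and 10.6 ± 0.888 CPM after IDPN (mean ± SD, 3 libraries per group), which is 14.8% of control. Longer transcripts give more counts, so a share within a library does not compare molecules, whereas the same share can be compared between libraries. The counts are per gene and do not separate the long alpha from the short beta transcripts of a neurexin gene.

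**Figure D1:**
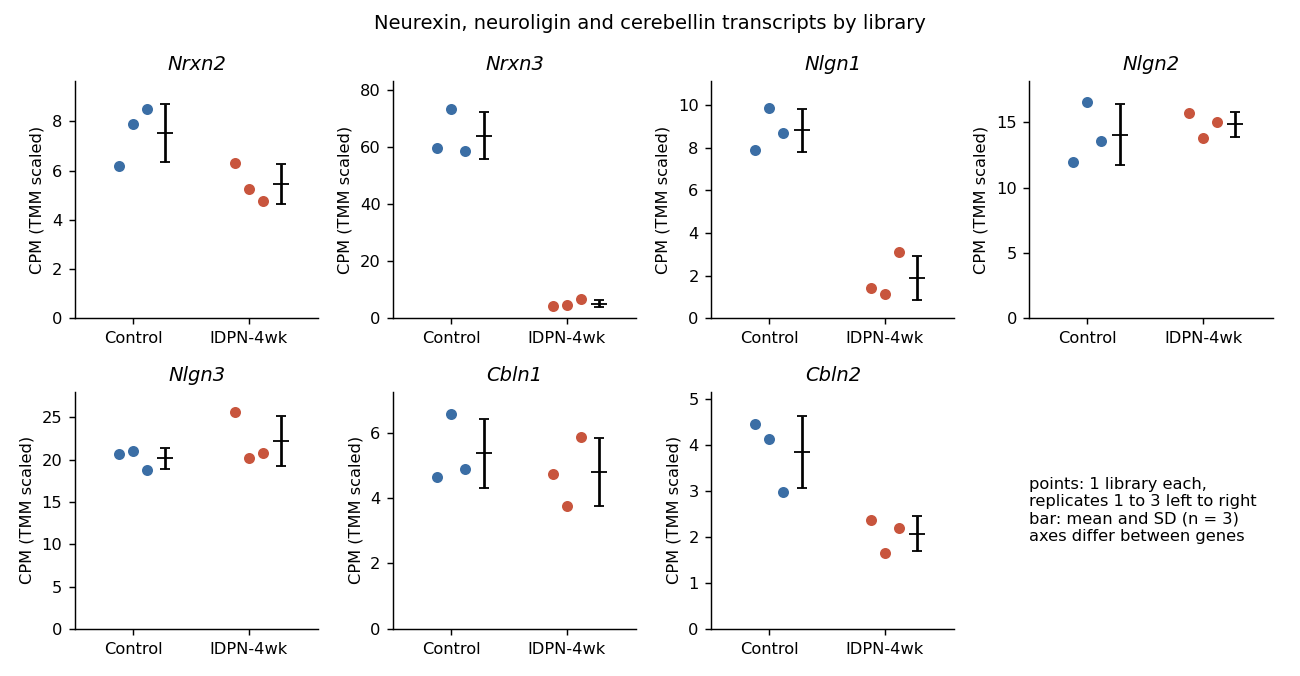
CPM of each of the 7 genes (vertical axes, which start at 0 and differ between genes) in the 3 control (blue) and 3 IDPN-4wk (red) libraries, with the mean and SD of each group as a black bar. The groups are apart for Nrxn3, Nlgn1 and Cbln2, and they overlap for Nrxn2, Nlgn2, Nlgn3 and Cbln1.

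Among the neuroligins, which face the neurexins from the postsynaptic side, Nlgn1 (ENSRNOG00000032576) was the gene with lower values. It had 7.88, 9.85 and 8.71 CPM in the controls and 1.44, 1.13 and 3.09 CPM after IDPN. These came from 122, 141 and 123 counts in control and from 20, 22 and 48 counts in exposed libraries. IDPN-4wk replicate 3 again had the highest exposed level, which was still well under every control. The means were 8.81 ± 0.993 and 1.89 ± 1.05 CPM (mean ± SD, 3 libraries per group), and the log2-Fold change was -2.23 (SE 0.34). Without IDPN-4wk replicate 3 it was -2.79, and without IDPN-4wk replicate 2 it was -1.94. The coefficient of variation in the exposed libraries was 55.8%, against 18.3% from counting error.

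Nlgn2 (ENSRNOG00000015430) had 11.9, 16.6 and 13.6 CPM in the controls and 15.7, 13.8 and 15.0 CPM after IDPN. All exposed values lay within the range of the controls. The log2-Fold change was 0.08 (SE 0.15), with means of 14.0 ± 2.34 and 14.8 ± 0.936 CPM (mean ± SD, 3 libraries per group).

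Nlgn3 (ENSRNOG00000003812) had 20.7, 21.0 and 18.8 CPM in the controls and 25.6, 20.2 and 20.8 CPM after IDPN. IDPN-4wk replicate 1 was above all controls and the other two exposed libraries were among them. The means were 20.1 ± 1.20 and 22.2 ± 2.97 CPM (mean ± SD, 3 libraries per group) and the log2-Fold change was 0.14 (SE 0.13). Neither of these genes passed a threshold, which does not show that their levels were equal in both groups.

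The summed level of the neuroligin genes was 43.0 ± 3.83 CPM in the controls and 38.9 ± 3.79 CPM after IDPN (mean ± SD, 3 libraries per group), 90.5% of control. Nlgn1 made up 20.5% ± 0.915 of the neuroligin counts in control and 4.85% ± 2.68 in IDPN-4wk libraries (mean ± SD, 3 libraries per group). Its share was 3.37%, 3.23% and 7.95% in the exposed libraries, where the lowest control share was 19.5%. The shares of Nlgn1 thus did not overlap between the groups.

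**Figure D2:**
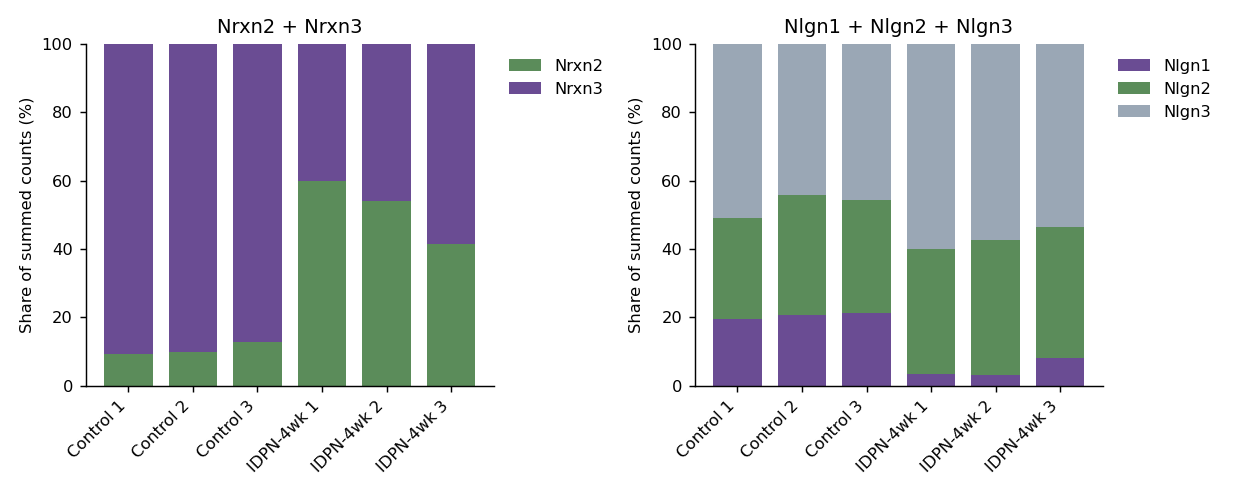
Share of each gene in the summed counts of Nrxn2 and Nrxn3 (left) and of Nlgn1, Nlgn2 and Nlgn3 (right), in percent, for each of the 6 libraries. The share of Nrxn3 is from 87.4% to 90.6% in control and from 40.1% to 58.7% in IDPN-4wk libraries, and that of Nlgn1 is from 19.5% to 21.2% and from 3.23% to 7.95%.

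The stretches before the start of the neuroligin genes are shown because these paralogs differed in their values while they encode related proteins. RefSeq promoter sequences of build GRCr8 were found for 4 of the 7 genes, namely Nlgn1, Nlgn2, Nlgn3 and Cbln2. The last 250 bases before the start that the table gives are printed on the strand of the gene. The window of Nlgn1 is chr2:110930677-110930926 (minus strand), that of Nlgn2 is chr10:55056579-55056828 (minus strand) and that of Nlgn3 is chrX:70469228-70469477 (plus strand). Capitals mark matches to CAGNTG on either strand, an E-box of the kind bound by basic helix-loop-helix factors.
Nlgn1: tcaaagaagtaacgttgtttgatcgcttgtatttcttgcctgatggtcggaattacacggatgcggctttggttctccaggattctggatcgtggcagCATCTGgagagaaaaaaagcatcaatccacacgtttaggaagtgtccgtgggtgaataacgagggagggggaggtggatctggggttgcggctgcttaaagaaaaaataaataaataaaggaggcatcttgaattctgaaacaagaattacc
Nlgn2: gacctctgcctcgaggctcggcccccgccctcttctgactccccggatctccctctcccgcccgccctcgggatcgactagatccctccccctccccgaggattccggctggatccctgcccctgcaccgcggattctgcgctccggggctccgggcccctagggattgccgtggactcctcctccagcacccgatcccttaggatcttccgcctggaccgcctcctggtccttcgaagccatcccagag
Nlgn3: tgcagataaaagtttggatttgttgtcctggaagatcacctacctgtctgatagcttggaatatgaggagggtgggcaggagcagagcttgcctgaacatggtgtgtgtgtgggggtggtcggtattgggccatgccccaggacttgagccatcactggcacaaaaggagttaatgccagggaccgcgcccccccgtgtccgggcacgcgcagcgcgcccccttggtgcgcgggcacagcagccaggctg

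The Nlgn1 window held 1 match to CAGNTG and those of Nlgn2 and Nlgn3 held 0, where 43.3% of the 33469 promoters in the table hold at least 1. The windows also differed in base composition. GC content was 44.4% for Nlgn1, 69.2% for Nlgn2 and 60.0% for Nlgn3, with a median of 51.2% over all promoters of the table. CG dinucleotides numbered 10, 20 and 11 in the same order, against a median of 5. GGGCGG, a GC box, was matched on either strand 3 times for Nlgn2 and 0 times for Nlgn1 and Nlgn3, and 30.5% of all promoters hold it. TATAAA was in none of these windows and is in 12.9% of all promoters. The Cbln2 window, which is not printed, held 0 matches to CAGNTG and 2 to GGGCGG. Its GC content was 66.0% and it had 21 CG dinucleotides. The table gives 1 start per gene, and these genes have several transcripts, so the start used in this tissue may be another. A match is a description of the letters and not a binding site.

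Of the cerebellins, Cbln2 (ENSRNOG00000013654) had 4.46, 4.12 and 2.97 CPM in the controls and 2.37, 1.65 and 2.19 CPM after IDPN. Control replicate 3 was the nearest to the exposed libraries, and the groups did not overlap. The means were 3.85 ± 0.778 and 2.07 ± 0.375 CPM (mean ± SD, 3 libraries per group), with a log2-Fold change of -0.90 (SE 0.29). It missed the adjusted p threshold. The libraries held from 32 to 69 counts of Cbln2, and counting error gives a coefficient of variation of 13.3% in control, where 20.2% was found.

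Cbln1 (ENSRNOG00000000010) had 4.65, 6.57 and 4.88 CPM in the controls and 4.74, 3.77 and 5.86 CPM after IDPN. The groups overlapped over most of their range. The means were 5.37 ± 1.05 and 4.79 ± 1.05 CPM (mean ± SD, 3 libraries per group) and the log2-Fold change was -0.17 (SE 0.25). The other cerebellin genes, Cbln3 and Cbln4, reached at most 9 and 2 counts in a library and were removed by the filter. So was Grid1, a delta class receptor, with at most 7 counts.

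The 7 genes were also fitted in other ways. Nrxn3 and Nlgn1 passed both thresholds in the 12 other fits, 6 of which left out a library, and the other 5 genes passed in none of them. The log2-Fold change of Nrxn3 was from -3.88 to -3.52 over the 11 fits that give one without a fold threshold. The sign of Nlgn2 and Cbln1 was not stable: Nlgn2 was at -0.026 without control replicate 1 and Cbln1 at 0.0023 without control replicate 2.

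**Figure D3:**
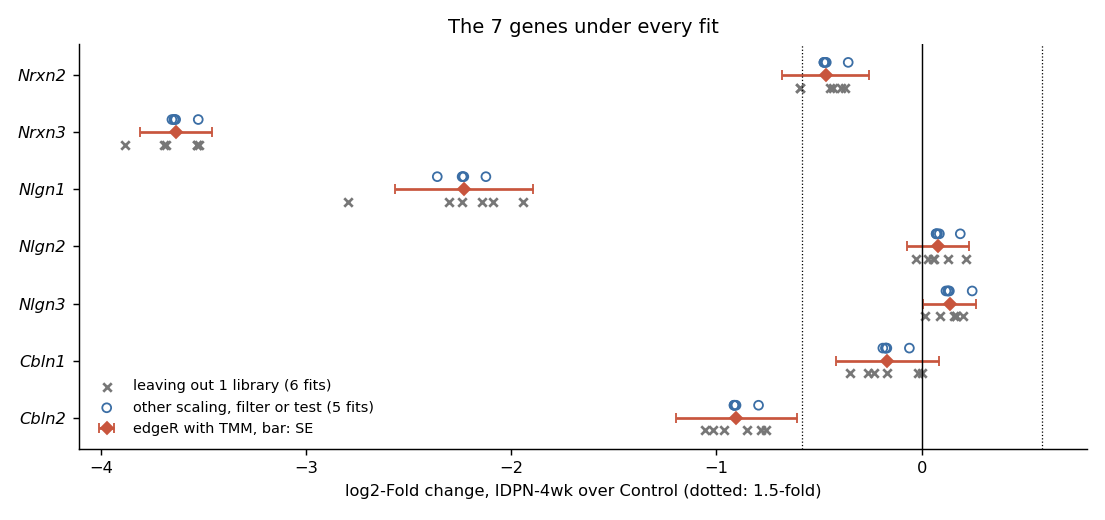
Log2-Fold change of IDPN-4wk over control (horizontal axis) for each of the 7 genes: red diamonds with SE are the edgeR fit with TMM, crosses are the 6 fits that each left out 1 library, and open circles are the fits with another scaling, filter or test. Nrxn3, Nlgn1 and Cbln2 stay to the left of the dotted 1.5-fold line in every fit, and Nlgn2, Nlgn3 and Cbln1 lie around 0 (Nrxn2 was from -0.59 to -0.36).

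Transcripts of other cells were measured in the same libraries. Of 10 HC markers, 5 were downregulated and 0 upregulated, and their summed level was from 2433 to 2605 CPM in the controls and from 1293 to 1655 CPM after IDPN, 57.7% of control. Among the exposed libraries the HC sum was highest in IDPN-4wk replicate 3, which also had the highest Nrxn3 and Nlgn1. The sums of supporting cell and Schwann cell markers were highest in this library too. The HC marker with the largest fall was Slc17a8, the vesicular glutamate transporter of HCs, with -2.56 on the log2 scale (edgeR Padj 8.48e-06). The part of HC number or HC RNA in the values of Nrxn3 and Nlgn1 was not tested.

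Of 10 neuron markers, 9 were tested, with 2 down and 2 up. Their sum was from 167 to 184 CPM in the controls and from 116 to 129 CPM after IDPN. Isl1 gave 98.2 of the 177 CPM of the control mean, while the neuronal gene Stmn2 had at most 6 counts in a library. The 2 neuron markers down were Rbfox3 and Isl1 (log2FC -1.20 and -0.67). The 2 up were Nefh and Prph (log2FC 2.05 and 2.57), with at most 53 and 83 counts in a library, so the sum does not follow each marker. Supporting cell markers (3 of 8 down, 0 up) summed to 10435 to 11411 CPM in the controls and 5869 to 7128 CPM after IDPN. Otog, at 6262 of the 10830 CPM of the control mean, weighed most in this sum, while Sox9 and Hes1 were at 118% and 128% of control and did not pass the test (log2FC 0.24 and 0.36, edgeR Padj 0.054 and 0.0783). Schwann cell markers (1 of 8 down, 0 up) summed to 8489 to 10730 and 5800 to 8698 CPM, and markers of dark cells and melanocytes (3 of 7 down, 0 up) to 1935 to 2507 and 1380 to 1531 CPM. Macrophage markers (0 of 8 down, 1 up), stroma markers (1 of 6 down, 1 up) and endothelium markers (1 of 5 down, 0 up) summed to 101%, 109% and 81.3% of control on average, and the macrophage sum was at 133%, 71.5% and 98.8% in the exposed libraries. No marker with a row in the table was at 0 in all libraries. The part of these cells in the values of the 7 genes was not tested.

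**Figure D4:**
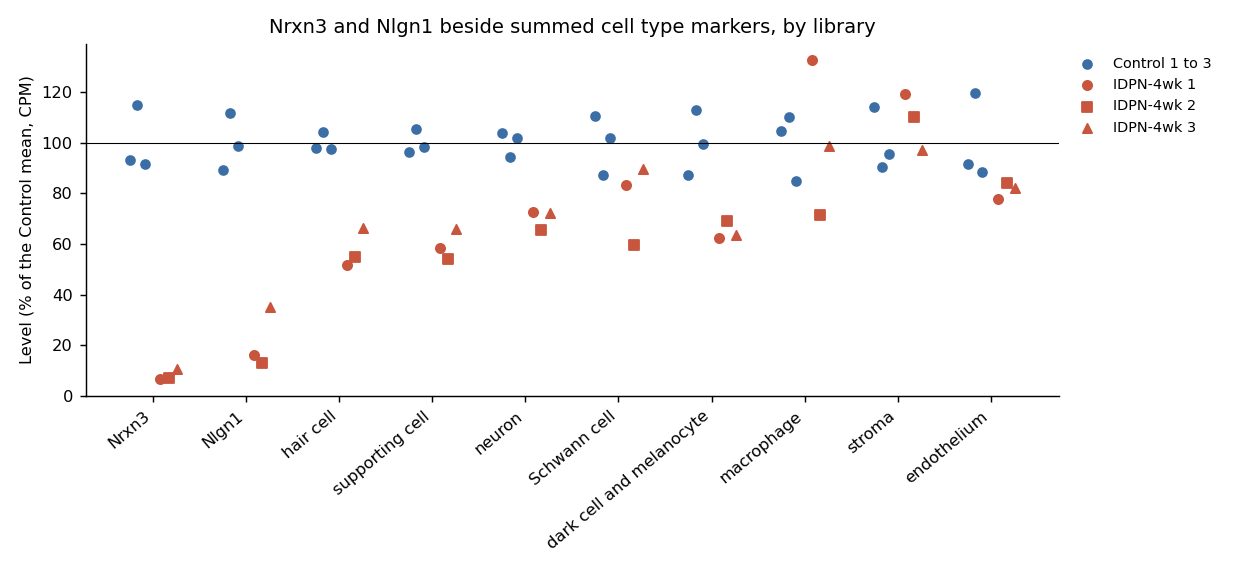
Level of Nrxn3, of Nlgn1 and of the summed markers of 8 cell types in each library, as a percentage of the control mean of the same quantity (vertical axis, starting at 0), with controls in blue and IDPN-4wk libraries in red. Nrxn3 is between 6.62% and 10.5% in IDPN-4wk libraries and Nlgn1 between 12.9% and 35.1%, where the HC sum is between 51.8% and 66.3%.

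Genes that work with neurexins were taken from a list written from general knowledge: scaffold proteins of the neurexin tail and secreted proteins that bind neurexins. Of 23 genes, 11 were tested, and 3 were downregulated and 0 upregulated. Their median log2-Fold change was -0.64.

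Apba1 and Apba2 encode adaptor proteins that link the neurexin complex to vesicle release. Apba1 was at 388, 393 and 362 CPM in the controls and 175, 162 and 225 CPM after IDPN (log2-Fold change -1.03, SE 0.11, edgeR Padj 1.61e-04). Apba2 was the lower of the pair relative to control, falling from 7.07 ± 0.305 to 1.95 ± 0.248 CPM (mean ± SD, 3 libraries per group, log2FC -1.86, edgeR Padj 3.85e-04). Apba3, the paralog found in most tissues, showed a log2-Fold change of -0.08 (edgeR Padj 0.589) and is named here after its value was seen. Fam19a2, a secreted neurexin ligand, had from 6 to 24 counts in a library. Its log2-Fold change was -1.45 (edgeR Padj 0.0355), and it lost the call in all 6 fits that left out a library, with DESeq2 and with no filter on low counts. In those fits 2 genes of the list were called. Lin7c, named after its value was seen, was also called, as higher, when TMM was left out.

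Other receptors for neurexins and cerebellins moved in both directions. Of 13 genes, 11 were tested, 2 were downregulated and 1 was upregulated, and the median log2-Fold change was -0.16. Adgrl3, a latrophilin that binds teneurins and FLRT proteins, was at 156, 164 and 161 CPM in the controls and 60.7, 64.5 and 74.9 CPM after IDPN. Its log2-Fold change was -1.26 (SE 0.09, edgeR Padj 1.31e-05). Clstn3, a calsyntenin, fell from 22.5 ± 3.50 to 12.6 ± 1.03 CPM (mean ± SD, 3 libraries per group, log2FC -0.84, edgeR Padj 0.00284). Igsf21, an immunoglobulin protein that binds a neurexin, rose from 2.75 ± 0.846 to 7.69 ± 0.943 CPM (mean ± SD, 3 libraries per group, log2FC 1.48, edgeR Padj 0.00289). Without control replicate 2 the list had 5 called genes in place of 3, as Lrrtm3 and Clstn1 (named after their values were seen) were then called higher, which made 2 lower and 3 higher. The balance was also 2 lower and 3 higher when TMM was left out, and Lrrtm3 was called higher with DESeq2 and with limma voom.

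The list of neuroligin scaffolds and regulators held 22 genes, of which 19 were tested, 7 were downregulated and 0 upregulated. Its median log2-Fold change was -0.41. Mdga2, whose product sits beside neuroligins and blocks their binding to neurexins, had 142, 93 and 91 counts in control and 0, 1 and 11 counts in IDPN-4wk libraries. Its log2-Fold change was -4.85 (SE 0.64, edgeR Padj 5.27e-04), and IDPN-4wk replicate 3 held nearly all of the exposed counts. Mdga1, the paralog of the same function, showed a log2-Fold change of 0.88 (edgeR Padj 0.0734) and is named after its value was seen, and it was called higher when TMM was left out and without control replicate 1. Gphn encodes gephyrin, the scaffold of inhibitory synapses that binds neuroligins. It was at 49.5, 62.2 and 53.0 CPM in the controls and 20.4, 19.7 and 26.6 CPM after IDPN (log2-Fold change -1.30, SE 0.13, edgeR Padj 1.20e-04). Shank2, a scaffold of excitatory synapses, fell from 51.1 ± 4.63 to 24.6 ± 3.53 CPM (mean ± SD, 3 libraries per group, log2FC -1.06, edgeR Padj 2.07e-04).

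Magi1, a scaffold of cell junctions (log2-Fold change -0.78, edgeR Padj 0.0131), and Shank1, at 4 to 31 counts in a library (-1.69, edgeR Padj 0.0273), completed the 5 called genes of lowest p. Shank1 lost its call in all 6 fits that left out a library and Magi1 lost its own without control replicate 3. The count of 7 called scaffold genes was 3 without control replicate 3 and 4 without control replicate 2, IDPN-4wk replicate 1 or IDPN-4wk replicate 2. Dlg4, which encodes the scaffold PSD-95, showed a log2-Fold change of 0.37 (edgeR Padj 0.373) and is named after its value was seen.

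Adhesion systems that run beside the neurexins were counted for comparison. Of 36 genes, 30 were tested, 8 were downregulated and 0 upregulated, and the median log2-Fold change was -0.39. Cadm2, a homophilic adhesion molecule, had 93, 67 and 76 counts in control and 3, 5 and 10 counts in IDPN-4wk libraries (log2-Fold change -3.83, SE 0.40, edgeR Padj 1.31e-04). Tenm2, a teneurin that binds latrophilins, fell from 8.97 ± 2.49 to 1.30 ± 0.304 CPM (mean ± SD, 3 libraries per group, log2FC -2.79, edgeR Padj 1.41e-04). Ntng1, a netrin-G, went down from 2.22 ± 0.837 to 0.548 ± 0.108 CPM (edgeR Padj 0.00986) at 6 to 41 counts in a library. Slitrk6 (-0.66, edgeR Padj 7.04e-04) lost its call without control replicate 2 and when TMM was left out. Ntrk3, the neurotrophin receptor TrkC, showed a log2-Fold change of -0.78 (edgeR Padj 0.00379), but the study picked it partly on these samples. Without control replicate 2 the list had 5 called genes in place of 8. Shares of called genes in the lists were from 26.7% to 36.8%, beside 9.71% of all genes tested, and no test compared a list with other genes.

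**Figure D5:**
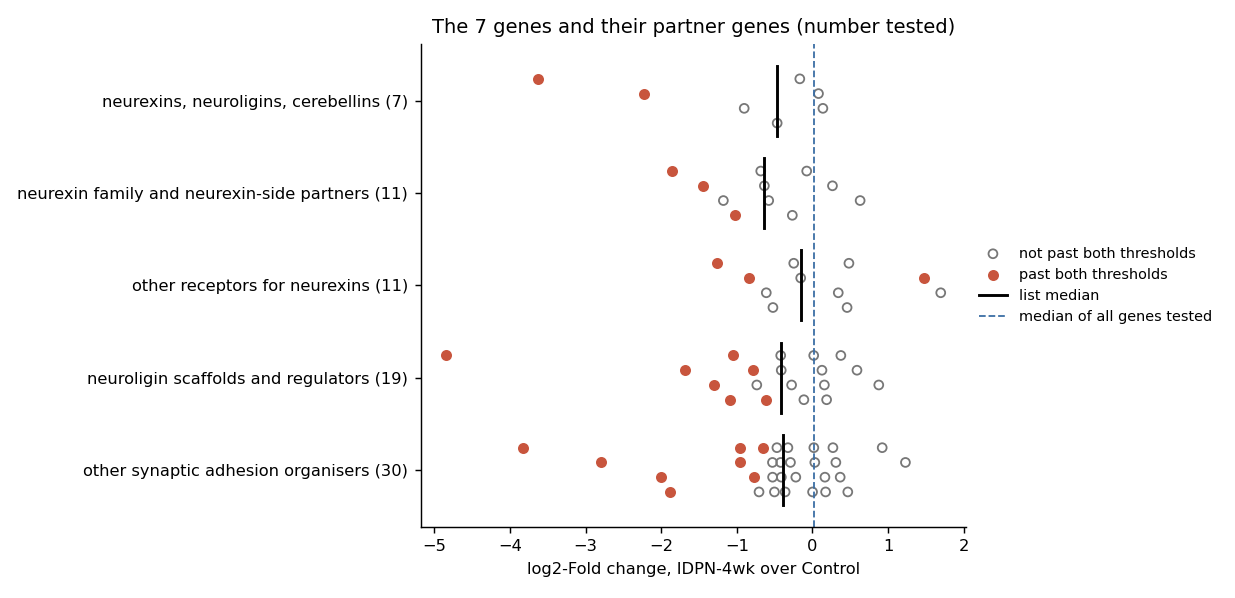
Log2-Fold change of IDPN-4wk over control (horizontal axis) for the 7 genes and for each tested gene of the partner lists, with filled points past both thresholds, a black bar at each median and a dashed line at the median of all genes tested. Filled points lie to the left of 0, except for Igsf21 in the list of other receptors.

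The genes whose pattern over the 6 libraries was most like that of Nrxn3 were named by the root mean square difference of log2 CPM, after each gene was centred on its own mean. The nearest were Vwa3a (0.19), LOC102551716 (0.22), Cadm2 (0.26), Kcnma1 (0.26) and Dpp10 (0.26). Vwa3a, which the study lists as an HC gene and picked as lowered partly on these samples, had 58.6, 64.3 and 56.3 CPM in the controls and 4.53, 5.21 and 8.95 CPM after IDPN. It thus had the order of Nrxn3 among the exposed libraries. Kcnma1, the large conductance potassium channel of HCs, had 5.68, 7.62 and 6.87 CPM in the controls and 0.575, 0.309 and 0.579 CPM after IDPN. LOC102551716 and Dpp10 had at most 3 counts in an exposed library, so their places rest on few reads. With a prior count of 0.5 in place of 2, 2 of these 5 genes were still among the 5 nearest, namely Vwa3a and Kcnma1.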

How the data were processed

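RNA-seq libraries were made from 6 animals, 3 per group, by the SMART-seq2 protocol, which does not keep the strand. The authors mapped the reads with STAR to the rat genome Rnor6.0 and deposited expected counts per gene, estimated with RSEM. All values were whole as deposited. Groups were taken from the treatment label, and the labels used here name no batch.

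The filter on low counts was filterByExpr with min.count 10 and min.total.count 15, and 14352 genes were left. After TMM scaling, edgeR 4.0.16 (R 4.3.3) was used for a quasi-likelihood F test. Thresholds were a Benjamini-Hochberg adjusted p (Padj) under 0.05 over all genes and a fold change over 1.5. The SE was derived from the F statistic. CPM values rest on counts without molecular identifiers, so intervals of counting error cover sampling of reads only, and 3 counts correspond to 0.155 to 0.216 CPM. The fit was also run on simulated counts with the same dispersion for all genes, which is simpler than these data. No result here rests on that run.

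The genes and lists were chosen with earlier results of these data known. In each partner list, up to 5 lower and 5 higher genes with the smallest p past both thresholds were named, with the 5 genes most like Nrxn3. Any other gene, the single marker genes included, was named after its value was seen. Alternatives were DESeq2 1.42.0, limma 3.58.1 (voom), glmTreat, 2 other scalings, no filter and leaving out each library. Cask, Tafa1, Lrrtm1, Slitrk4, Tenm1, Dct and Pecam1 were not analysed here. Promoter sequences are from RefSeq. Some genes are not reported here and were left out of the lists.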

Additional observations from a re-analysis of the deposited data

How the results depend on the processing

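Of the 7 genes, 5 kept their direction in the 11 other fits that give a fold change, and Nrxn3 and Nlgn1 were the genes called in each of them. Nrxn2 passed the fold threshold, but not that of the adjusted p, when replicate 1 of either group was left out (log2-Fold change -0.59 in both). Leaving out 1 library at a time gave log2-Fold changes from -0.026 to 0.21 for Nlgn2 and from -0.35 to 0.0023 for Cbln1, so the sign of these values depended on the library. The 1394 genes called became 453 with glmTreat, where the fold threshold is part of the test, and 1085 to 1581 without 1 library. Library size alone moved the median log2-Fold change of all genes from 0.02 to 0.13 and the share of lower genes among those called from 68.1% to 50.6%, and it gave 5 called genes among the other receptors for neurexins in place of 3. Without 1 library, called genes numbered 3 to 5 among those receptors, 3 to 6 among the neuroligin scaffolds and 5 to 9 among the other adhesion organisers. With a prior count of 0.5, 2 of the 5 genes most like Nrxn3 stayed among the nearest. The cause was not tested. No paired analysis was possible because the labels give no replicate numbers and numbers in accession order pair nothing. Fam19a2 and Shank1, which lost their calls in each fit that left out 1 library, had from 6 to 24 and from 4 to 31 counts in a library, and the part of depth was not tested.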

Other observations

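Some partner genes were under the filter on low counts and are given by their counts only. Il1rapl1, a partner of receptor tyrosine phosphatases at synapses, had 6, 1 and 12 counts in control and 0 counts in each IDPN-4wk library, and it was called lower in the fit with no filter on low counts. Elfn2 had 0 counts in each control and 8, 0 and 1 counts in IDPN-4wk libraries. The neurexin ligands Nxph1 and Nxph2 had at most 3 and 1 counts in a library. Since 0 counts are compatible with as many as 3, no fold is given for these genes.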
